A study of Mus musculus with 3 samples.

Results

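The Fc receptor genes of the mouse were followed across the cell classes of a single-cell RNA sequencing series of Cd11b-sorted brain cells. The members were the 7 genes listed under the symbols Fcgr1, Fcgr2b, Fcgr3, Fcgr4, Fcer1g, Fcgrt and Fcrls, chosen by symbol among the 27998 genes of the deposited matrix. All 7 were found. Over all barcodes they held from 449 (Fcgr4) to 35743 (Fcer1g) unique molecular identifiers (UMIs, each standing for 1 captured transcript molecule).

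Cells came from whole brain without the cerebellum of female C57BL6J mice aged 5 months, were sorted for Cd11b, a surface protein of myeloid cells encoded by Itgam, and were profiled with 10x Genomics 3′ v2 reagents. The labels describe an untreated group (Ctrl, 1 animal), a group that had eaten only a PLX5622 diet of 1200 mg/kg for 14 days (D0, 2 animals pooled), and a group treated likewise and then given control diet for a further 2 days (D2, 1 animal). PLX5622 inhibits Csf1r, a receptor that microglia need to survive. Libraries of 4 samples were made side by side per the protocol, and 3 were analysed here. Each cell barcode in the matrix ends in 1, 2 or 3, and nothing in the labels or files used here says which number belongs to Ctrl, D0 or D2. The cells are therefore given by suffix, no comparison of the 3 groups was made, and no p-value was computed, since the labels give 1 library per group.

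Suffix 1 held 1263 barcodes, suffix 2 held 599 and suffix 3 held 287, with median UMIs per barcode of 3662, 6188 and 8172. No barcode sequence was shared between suffixes. After filters, 2137 cells remained in 11 clusters, found without the 7 member genes, and 10 of these clusters were named from marker lists. The classes were microglia-like (1131 cells), border-associated-macrophage-like (127), monocyte-like (173), non-classical-monocyte-like (83), dendritic-like with Cd209a (229), mature-dendritic-like (60), neutrophil-like (133) and NK-like (125). The cluster of 76 cells led by the cell cycle genes Ube2c and Birc5 kept no name. The cells fell unevenly over the suffixes: 1081 microglia-like cells had suffix 1, 48 had suffix 2 and 2 had suffix 3. Itgam, the gene behind the sort, stood at 245, 70.2 and 119 counts per 1000000 UMIs (CPM) in suffixes 1, 2 and 3.

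Some sums go against their class name. In suffix 2 the 26 border-associated-macrophage-like cells had only 76.3 CPM of their own 10 markers, against 3609 CPM in the 95 cells of suffix 1. The 32 non-classical-monocyte-like cells of suffix 2 carried 3058 CPM of endothelial markers, against 63.5 CPM in suffix 3. At a finer clustering resolution of 1.0, 48 of the 133 neutrophil-like cells were named monocyte-like, and 12 of the 83 non-classical-monocyte-like cells and 12 of the 127 border-associated-macrophage-like cells were named endothelial-like. For some of the results that rest on these cells, the value in the cells named alike at both resolutions, an alternative chosen after seeing the data, is given as well.

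Fc receptors bind the constant part of antibodies. FcγRI (Fcgr1), FcγRIII (Fcgr3) and FcγRIV (Fcgr4) are activating receptors, and they signal through the common γ chain encoded by Fcer1g, whose tyrosine motif recruits the kinase Syk. FcγRIIB (Fcgr2b) is the inhibitory receptor and recruits the phosphatase SHIP1, encoded by Inpp5d. FcRn (Fcgrt) pairs with β2-microglobulin (B2m) and returns internalised IgG to the cell surface or the blood, and Fcrls is a receptor-like relative widely used as a microglia marker in mouse brain.

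A group of 4 member genes lies close together. On chromosome 1 of GRCm38 (GENCODE M21), Fcgr2b (170958617 to 170976547, minus strand), Fcgr4 (171018920 to 171029761, plus strand), Fcgr3 (171051174 to 171064935, minus strand) and Fcer1g (171229572 to 171234365, minus strand) lie within 275749 bases. Fcrls (87250758 to 87263738) and Fcgr1 (96282909 to 96293969) are on the minus strand of chromosome 3, and Fcgrt (45092990 to 45103851) is on the minus strand of chromosome 7. The annotation places the antisense gene Gm38204 over Fcgr2b and Gm45669 over Fcgrt. Whether counting used the strand is not given in the sources used here, so reads of these 2 members and of their antisense partners cannot be told apart.

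The 250 bases before each RefSeq start site (GRCm38.p6) were searched on both strands for GAGGAAG and its reverse complement CTTCCTC. These letters are a core bound by PU.1 and other ETS factors. The motif was chosen after the sequences had been seen, so the count of members cannot be weighed against the share of all genes. It was in the windows of 4 of the 7 members, Fcgr1, Fcgr3, Fcgr4 and Fcrls, and in 12.0% of the 27025 genes with a window (10.6% of 32851 windows). The matches are shown in capitals with 11 bases on each side, or up to the start site, on the strand of the gene:
Fcgr1, chr3:96294008-96294036, minus strand: atggcaacttcCTTCCTCttttctaatct
Fcgr3, chr1:171059395-171059421, minus strand: gagtccatttcCTTCCTCtttttgtag
Fcgr4, chr1:171018892-171018920, plus strand: aaggctatttaCTTCCTCtcttctagtca
Fcrls, chr3:87263651-87263679, minus strand: aagtctgtaaaGAGGAAGgacgtttgctt

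The match ended 49 bases before the start site of Fcgr1, 9 bases before one start site of Fcgr3, 16 bases before that of Fcgr4 and 137 bases before that of Fcrls. The 3 activating receptor genes held the reverse complement, and Fcrls held the forward form. The whole windows of the high-affinity receptor gene Fcgr1 and of Fcgr4, whose levels below peak in different classes, read:
Fcgr1, chr3:96293970-96294219, minus strand: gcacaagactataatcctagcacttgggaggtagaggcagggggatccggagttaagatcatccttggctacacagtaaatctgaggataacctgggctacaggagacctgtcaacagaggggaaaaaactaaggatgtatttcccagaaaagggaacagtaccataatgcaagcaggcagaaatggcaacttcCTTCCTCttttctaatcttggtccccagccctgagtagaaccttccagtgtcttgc
Fcgr4, chr1:171018676-171018925, plus strand: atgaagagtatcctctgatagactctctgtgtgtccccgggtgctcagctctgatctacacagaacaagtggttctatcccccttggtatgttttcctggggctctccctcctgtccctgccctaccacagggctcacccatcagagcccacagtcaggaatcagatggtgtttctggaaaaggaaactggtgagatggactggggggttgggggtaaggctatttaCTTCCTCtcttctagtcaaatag

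A match describes the letters only. In Fcgr2b, Fcer1g and Fcgrt these letters were not in the window.

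Levels are given as CPM of counts summed over at least 20 cells of 1 class and 1 suffix, which left 18 sums. Intervals are exact 95% Poisson intervals and cover counting error only. Since a 3′ count is not scaled by transcript length, levels are compared between classes for 1 gene, and not between genes.

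**Figure D1:**
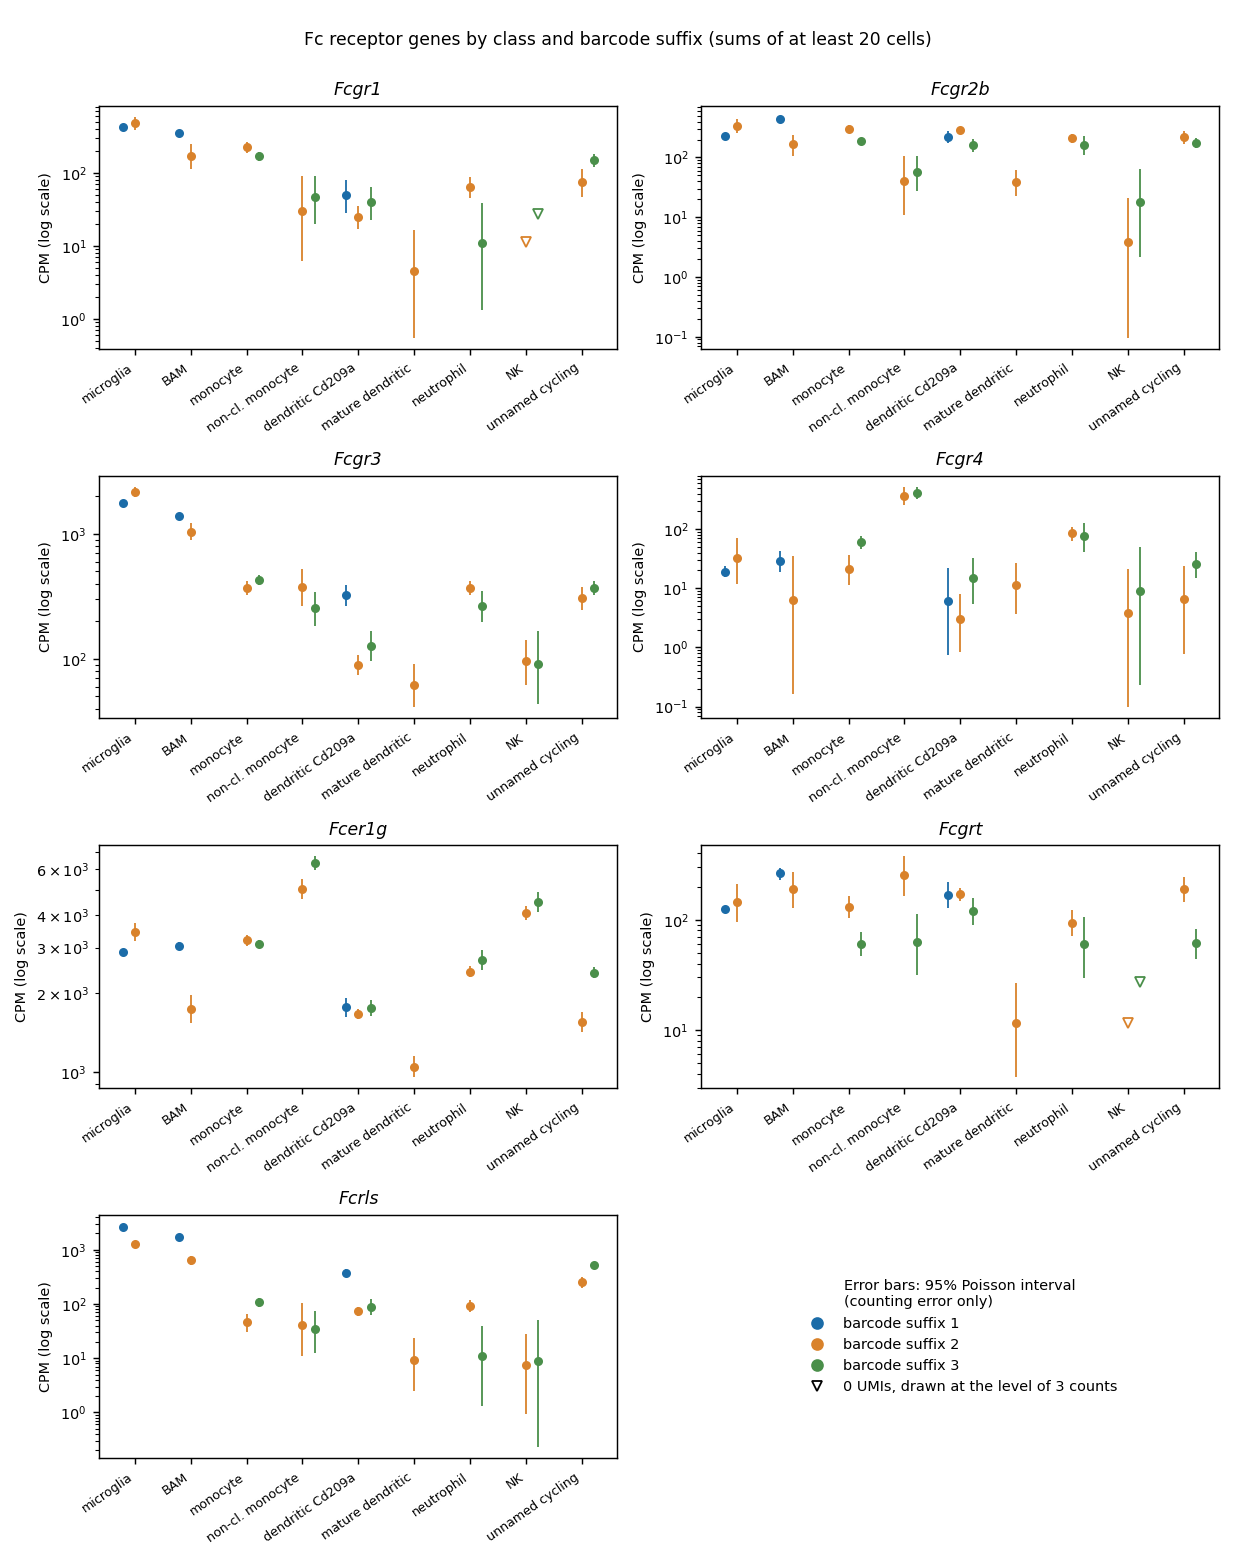
CPM (log scale) of each of the 7 genes by class, in sums of at least 20 cells, colored by barcode suffix, with 95% Poisson intervals. BAM stands for border-associated-macrophage-like, and open triangles mark sums with 0 UMIs, drawn at the level of 3 counts. Fcgr1, Fcgr3 and Fcrls are highest in microglia-like cells, Fcgr4 and Fcer1g in non-classical-monocyte-like cells.

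Fcgr1, the high-affinity IgG receptor gene, was highest in microglia-like cells. It stood at 421 CPM (403 to 440) in suffix 1 and 474 CPM (380 to 584) in suffix 2. Border-associated-macrophage-like cells of suffix 1 had 347 CPM (310 to 387). These cells also held 16801 CPM of the 10 microglia markers, against 33203 CPM in microglia-like cells, and the part of those UMIs in this and the Fcgr3 value was not tested. Monocyte-like cells had 224 CPM (188 to 265) in suffix 2 and 169 CPM (145 to 195) in suffix 3. In suffix 2 the intervals of microglia-like and monocyte-like cells did not overlap.

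A cluster led by cell-cycle genes, left unnamed, had 74.6 and 149 CPM of Fcgr1 in suffixes 2 and 3, the latter overlapping the monocyte-like cells. Neutrophil-like cells had 63.9 and 10.9 CPM, and 117 and 19.1 CPM in the cells named alike at both resolutions. Dendritic-like cells had 49.1, 24.6 and 39.3 CPM in suffixes 1, 2 and 3, non-classical-monocyte-like cells had 30.5 and 46.2 CPM in suffixes 2 and 3, and mature-dendritic-like cells had 2 UMIs, or 4.59 CPM. NK-like cells had 0 Fcgr1 UMIs in suffix 2 and in suffix 3, with intervals that reach 14.1 and 33.4 CPM. Monocyte-like and non-classical-monocyte-like cells, related blood cell types, were thus apart: the ratio in suffix 3 was -1.87 on the log2 scale (95% counting interval -3.11 to -0.86) and in suffix 2 -2.88 (-5.18 to -1.30).

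Fcgr3, the low-affinity activating receptor gene, had higher sums in the brain macrophage classes than in the rest in suffixes 1 and 2. Suffix 3 held no sum of at least 20 cells of these classes. With classes set cell by cell from marker shares, 23 microglia-like cells of suffix 3 had 486 CPM (425 to 552). This overlapped the 432 CPM (389 to 478) of the monocyte-like cells of suffix 3 under that setting. Microglia-like cells had 1756 CPM (1719 to 1793) in suffix 1 and 2161 CPM (1955 to 2384) in suffix 2, and border-associated-macrophage-like cells of suffix 1 had 1397 CPM (1323 to 1475). In suffix 2 the values for non-classical-monocyte-like (376 CPM), neutrophil-like (371 CPM) and monocyte-like cells (368 CPM) lay within each other's intervals. This did not hold in the cells named alike at both resolutions, where Fcgr3 was 650 CPM (550 to 763) in 51 neutrophil-like cells and 514 CPM (362 to 708) in 23 non-classical-monocyte-like cells, the former apart from the 368 CPM (322 to 420) of the monocyte-like cells. The 2 lowest sums among the 18 were those of mature-dendritic-like cells (61.9 CPM) and dendritic-like cells (89.1 CPM) of suffix 2.

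Dendritic-like cells of suffix 1 had 322 CPM of Fcgr3, above 89.1 and 128 CPM in suffixes 2 and 3, with intervals apart. In suffix 1 these 35 cells also held 4566 CPM of the 10 microglia markers, against 647 and 623 CPM in suffixes 2 and 3. The part of these UMIs in the Fcgr3 value was not tested. NK-like cells, in which Fcgr3 encodes the receptor CD16, had 95.6 CPM (61.8 to 141) in suffix 2 and 90.4 CPM (43.4 to 166) in suffix 3, on 25 and 10 UMIs.

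Fcgr4, the activating receptor gene known from patrolling monocytes and neutrophils, was highest in the non-classical-monocyte-like class. It stood there at 366 CPM (256 to 506) in suffix 2 and 415 CPM (325 to 523) in suffix 3, apart from every other class of the same suffix. Neutrophil-like cells followed with 84.7 CPM (63.4 to 111) and 76.0 CPM (41.5 to 127). Monocyte-like cells had 21.3 CPM in suffix 2 and 60.3 CPM in suffix 3, and microglia-like cells had 19.1 CPM in suffix 1 and 32.3 CPM in suffix 2, the last on 6 UMIs.

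In suffix 3 Fcgr4 was 6.89-fold higher in non-classical-monocyte-like than in monocyte-like cells (log2 2.78, 2.28 to 3.29). In suffix 2 the log2 ratio was 4.10 (3.15 to 5.14), on 36 and 13 UMIs. All 36 Fcgr4 UMIs of the 32 suffix 2 cells were in the 23 cells named alike at both resolutions, where the level was 500 CPM (350 to 692). After thinning every cell to 2000 UMIs, 48.8% (20 of 41) of the suffix 3 cells and 33.3% (9 of 27) of the suffix 2 cells still had an Fcgr4 UMI, against 0 of 31 and 0 of 67 NK-like cells. The same shares without thinning were 69.0% and 46.9%, and NK-like cells, of median depth 3002 and 3092 UMIs against 3598 and 2602, had 3.03% and 1.27%.

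**Figure D2:**
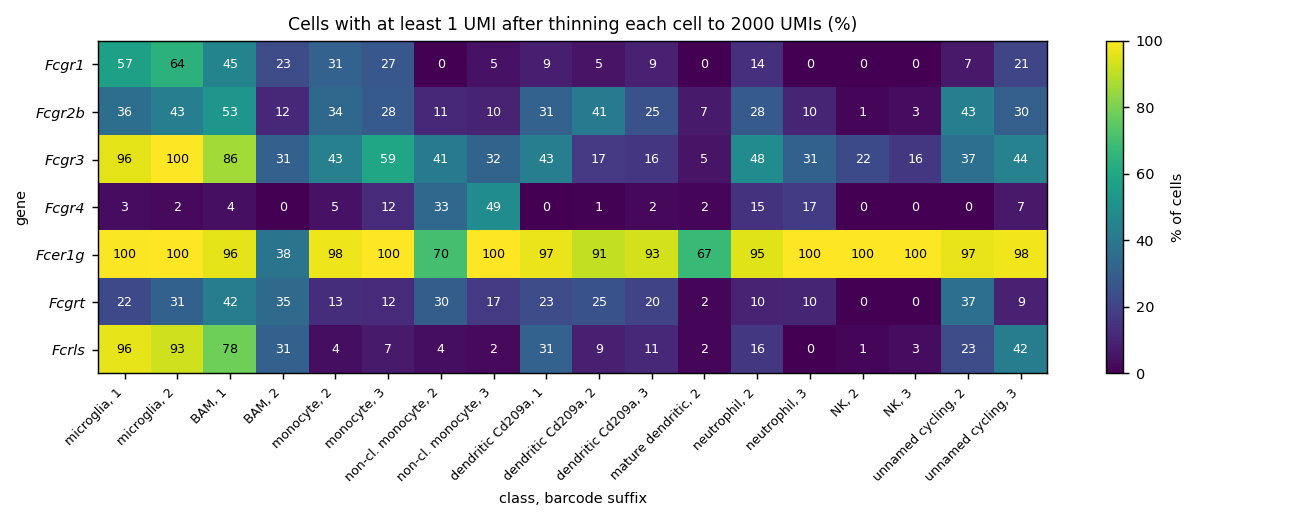
Percent of cells with at least 1 UMI of each gene (rows) in each class and suffix (columns), after thinning every cell to 2000 UMIs and leaving out shallower cells. Fcgr3 and Fcrls were found in 95.9% and 96.4% of microglia-like cells of suffix 1, and Fcgr4 reached 48.8% in non-classical-monocyte-like cells of suffix 3.

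Fcgr2b, the gene of the inhibitory receptor, had UMIs in every class. Border-associated-macrophage-like cells of suffix 1 had the highest sum with 436 CPM (395 to 480), against 231 CPM (218 to 245) in microglia-like cells of the same suffix. In suffix 2, microglia-like (340 CPM), monocyte-like (301 CPM) and dendritic-like cells (290 CPM) did not differ beyond their intervals. In suffix 3, monocyte-like (186 CPM), neutrophil-like (163 CPM) and dendritic-like cells (159 CPM) likewise overlapped. In the cells named alike at both resolutions, neutrophil-like cells were lower, at 66.9 CPM (26.9 to 138) in 20 cells against 188 CPM (158 to 222) in monocyte-like cells of suffix 3. Low values were found in non-classical-monocyte-like cells (40.6 and 57.7 CPM in suffixes 2 and 3), mature-dendritic-like cells (39.0 CPM) and NK-like cells (1 and 2 UMIs).

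The balance of the inhibitory and the activating low-affinity receptor gene differed between classes. Fcgr2b made up 11.6% (exact binomial interval 10.99 to 12.28) of the Fcgr2b and Fcgr3 UMIs of microglia-like cells in suffix 1 and 13.6% (10.6 to 17.0) in suffix 2. The share was 23.8% (21.8 to 25.9) in border-associated-macrophage-like cells of suffix 1, and 45.0% (40.1 to 49.95) and 30.2% (26.7 to 33.8) in monocyte-like cells of suffixes 2 and 3. Dendritic-like cells had 76.5% (72.5 to 80.2) in suffix 2 and 55.6% (46.1 to 64.7) in suffix 3, the 2 highest shares.

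In suffix 1, where microglia markers were high in the dendritic-like cells, their share was 40.7% (33.4 to 48.3). Neutrophil-like cells had an Fcgr2b share of 36.4% and 38.0% in suffixes 2 and 3, and 15.7% and 16.7% at resolution 1.0. Non-classical-monocyte-like cells had 9.76% and 18.5% on 41 and 54 UMIs. The 2 transcripts are alike: 48 stretches of 98 bases, the length taken for a read, were shared between them, but 0 of the last 500 such stretches at the 3′ end, where this assay reads. The shares compare classes for the same pair of genes and are not a ratio of molecules in the cell.

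**Figure D3:**
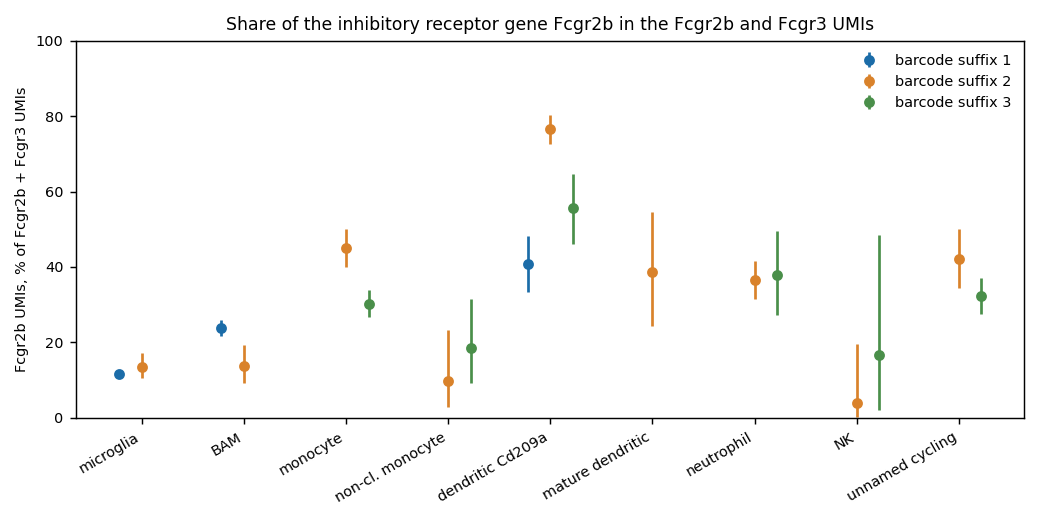
Fcgr2b UMIs as a percent of Fcgr2b plus Fcgr3 UMIs by class, colored by barcode suffix, with exact 95% binomial intervals (counting error only). Microglia-like cells lie at 11.6% and 13.6%, dendritic-like cells of suffix 2 at 76.5%.

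Fcer1g, the signalling chain shared by the activating receptors, had UMIs in every class. Its 18 sums ranged from 1048 CPM in mature-dendritic-like cells of suffix 2 to 6318 CPM in non-classical-monocyte-like cells of suffix 3, with a median of 2796 CPM. Non-classical-monocyte-like cells (5019 CPM in suffix 2, 6318 CPM in suffix 3) and NK-like cells (4075 and 4475 CPM) were the 2 highest classes of both suffixes, with intervals apart. In suffix 2, microglia-like (3434 CPM) and monocyte-like cells (3193 CPM) overlapped.

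NK-like cells thus ranked high among the classes for the chain, on 1066 and 495 UMIs in suffixes 2 and 3. They had 0 Fcgr1 and 0 Fcgrt UMIs in these suffixes, 1 Fcgr4 UMI in each, and 1 and 2 Fcgr2b UMIs. Fcgr3, the gene of CD16, had 25 and 10 UMIs there (95.6 and 90.4 CPM). Cd247, the ζ chain that pairs with Fcer1g in NK cells, stood at 87.9 and 72.3 CPM there. Among the 23 suffix 2 non-classical-monocyte-like cells named alike at both resolutions, Fcer1g stood at 6859 CPM (6268 to 7492).

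Fcgrt, the gene of the neonatal Fc receptor, had its highest sum in border-associated-macrophage-like cells. Border-associated-macrophage-like cells of suffix 1 had 263 CPM (231 to 298), above 124 CPM (115 to 135) in microglia-like cells of the same suffix. Dendritic-like cells had 169, 171 and 120 CPM in suffixes 1, 2 and 3, and microglia-like cells of suffix 2 had 146 CPM (95.9 to 212). In suffix 2 all neighbours in the order from non-classical-monocyte-like (254 CPM) down to neutrophil-like cells (94.3 CPM) overlapped.

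The value of 254 CPM (164 to 375) rested on 25 UMIs. In the 23 cells named alike at both resolutions Fcgrt stood at 111 CPM (48.0 to 219), on 8 UMIs. These 2 intervals overlap, and the part of mixed cells in the higher value was not tested. The 20 suffix 2 cells named endothelial-like at resolution 1.0 had 229 CPM of Fcgrt on 18 UMIs, with 0 UMIs of Fcgr1, Fcgr3 and Fcgr4. FcRn is known from endothelial cells, where it protects circulating IgG. Mature-dendritic-like cells of suffix 2 had 11.5 CPM of Fcgrt, and NK-like cells had 0 UMIs.

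Fcrls was highest in microglia-like cells. It stood at 2659 CPM (2613 to 2705) in microglia-like cells of suffix 1 and 1299 CPM (1140 to 1474) in those of suffix 2, and its 16 UMIs in the 2 microglia-like cells of suffix 3 give no level. Border-associated-macrophage-like cells of suffix 1 had 1732 CPM (1648 to 1818), together with 16801 CPM of the microglia markers, against 33203 CPM in the microglia-like cells. The part of those marker UMIs in the Fcrls value was not tested.

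An Fcrls UMI remained in 96.4% of 1013 microglia-like cells of suffix 1 and in 92.9% of 42 of suffix 2 once each cell was thinned (98.9% and 95.8% unthinned). NK-like cells, taken as a class without the gene, had 1.49% of 67 cells in suffix 2 and 3.23% of 31 in suffix 3. Their median depths were 3092 and 3002 UMIs, against 3381 and 3139 in the microglia-like cells of suffixes 1 and 2. Neutrophil-like cells, thinned likewise, had an Fcrls UMI in 13 of 81 cells of suffix 2 and in 0 of 29 of suffix 3. The low share of NK-like cells in suffix 2 thus did not hold for the neutrophil-like cells there. In suffix 1, the 13 NK-like cells held 19 Fcrls UMIs and 4470 CPM of microglia markers, which is 8.92 Fcrls UMIs per 100 microglia-marker UMIs, against 8.01 in microglia-like cells. Dendritic-like (8.20) and neutrophil-like cells (6.43) of suffix 1 had ratios near these values. Border-associated-macrophage-like cells of suffix 1 stood at 10.3 and monocyte-like cells at 2.70, the latter on 1 Fcrls UMI. The part of microglia transcripts in the Fcrls values of these classes was not tested.

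The unnamed cycling cells had the most Fcrls in suffix 3 among classes of at least 20 cells. They had 521 CPM (469 to 577) there and 250 CPM (197 to 312) in suffix 2. In suffix 3, 27 of 44 cells had an Fcrls UMI, and the median share of microglia markers among their UMIs was 0.602%, against 0.0464% in the 17 cells without one. In suffix 2 the same medians were 0.817% in 12 cells and 0.0331% in 18 cells. The cluster thus held cells with higher and with lower shares of microglia markers. Its sums of Fcgr1 (74.6 and 149 CPM in suffixes 2 and 3), Fcgr2b (220 and 176 CPM) and Fcgr3 (305 and 370 CPM) mix these cells. Since the cells were split by Fcrls itself, the medians describe that split only.

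**Figure D4:**
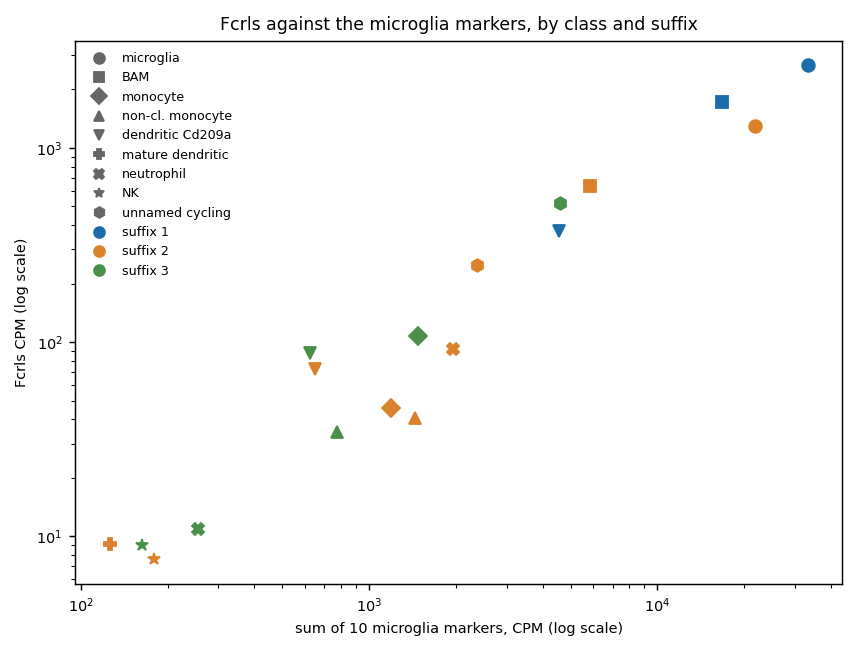
Fcrls CPM against the summed CPM of 10 microglia markers (both axes log scale) for the 18 sums of at least 20 cells, marked by class and colored by suffix. Fcrls runs from 7.64 CPM in NK-like cells of suffix 2 to 2659 CPM in microglia-like cells of suffix 1.

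A pair of comparisons set the members side by side over all genes. A gene entered with at least 50 UMIs in both sums together and was called at a ratio of 2 or more, with no replicate behind the call. Of the 6 members that entered within suffix 2, 3 were called higher in the 48 microglia-like than in the 83 monocyte-like cells, and 0 were called lower. Of all 1941 genes, 13.6% were called higher and 24.6% lower, with a median log2 ratio of -0.25. Fcrls was 28.3-fold higher (log2 4.82, 4.26 to 5.44), Fcgr3 5.87-fold higher (2.55, 2.31 to 2.79) and Fcgr1 2.11-fold higher (1.08, 0.68 to 1.48).

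The chain Fcer1g (0.10, -0.03 to 0.23), the inhibitory Fcgr2b (0.17, -0.26 to 0.59) and Fcgrt (0.15, -0.53 to 0.80) stayed near a ratio of 1, with intervals that include equal levels and do not reach 2-fold. Fcgr4 had 19 UMIs in all and did not enter. The Fcgr1 call was lost when doublets were kept (0.95).

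Among microglia-like cells, suffix 2 was set against suffix 1. Of the 7 members, 1 was called lower and 0 higher, where 22.2% of 7167 genes were called lower and 2.32% higher. Among the 660 genes with at least 1000 UMIs, a minimum chosen after seeing the data, 6.67% were called lower and 1.82% higher. Fcgr1, Fcgr2b, Fcgr3, Fcer1g and Fcrls each held at least 1000 UMIs in the 2 sums together. With 1 call, the count of members cannot be weighed against either share. The member called was Fcrls, at 2.05-fold lower (log2 -1.03, -1.22 to -0.85). It stayed lower under each of 9 alternatives (-1.12 to -0.91), past 2-fold in 5 of them.

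The homeostatic microglia gene P2ry12 stood at 4945 CPM in suffix 1 and 1773 CPM in suffix 2, and Fcrls per 100 microglia-marker UMIs was 8.01 and 5.94. Neutrophil markers stood at 210 and 733 CPM in the same cells, and their part was not tested. In the cluster that held 35 of the 48 suffix 2 cells, Fcrls stood at 3013 CPM in suffix 1 and 1567 CPM in suffix 2. The other members were not lower in suffix 2: Fcgr3 was 0.30 higher on the log2 scale (0.15 to 0.44), Fcer1g 0.25 (0.13 to 0.36) and Fcgr2b 0.56 (0.17 to 0.92), while the intervals of Fcgr1, Fcgr4 and Fcgrt include 0.

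**Figure D5:**
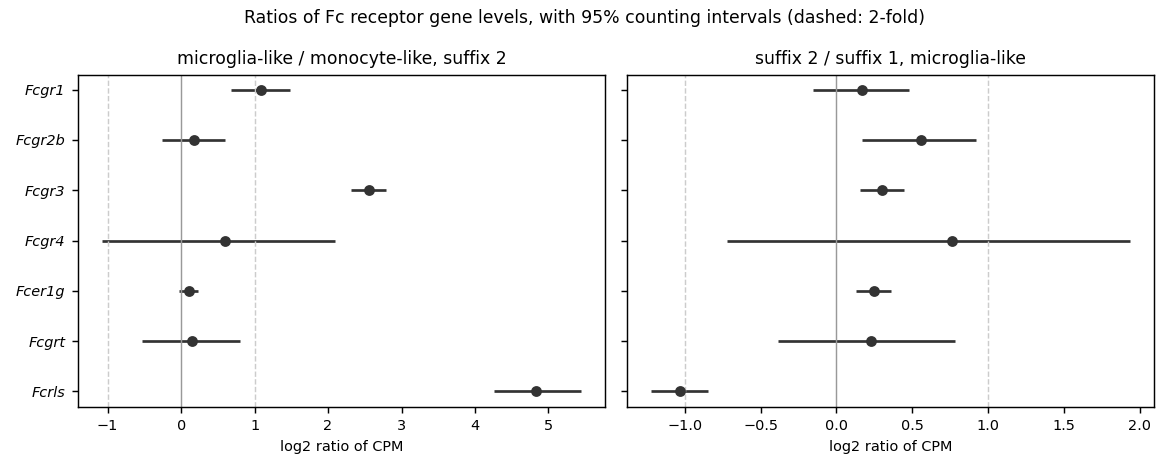
Log2 ratio of CPM for the 7 genes, microglia-like to monocyte-like cells within suffix 2 (left) and suffix 2 to suffix 1 within microglia-like cells (right), with 95% counting intervals and dashed lines at 2-fold. Fcrls is at 4.82 on the left and at -1.03 on the right.

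The suffix 1 microglia-like cells fell into 3 clusters, and 1 of them was led by the stress and cytokine genes Gdf15, Tnf and Egr1. Fcrls was lowest in that cluster, at 2152 CPM (2073 to 2233), against 3013 and 2732 CPM in the others. Fcgr1 (361, against 484 and 416 CPM), Fcgr3 (1564, against 1897 and 1778 CPM) and Fcer1g (2698, against 3116 and 2869 CPM) had the same order. The other members did not: Fcgr2b stood at 228 CPM against 223 and 238, Fcgr4 at 24.4 against 21.6 and 14.1, and Fcgrt at 115 against 114 and 137. The clusters were found from these cells without the member genes, and the differences are given as a description. Depth differed as well. Over all suffixes, the cluster led by Gdf15, Tnf and Egr1 had a median of 6036 UMIs per cell. The others had 2830 and 4006, in the order given above, and the part of depth was not tested.

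The remaining ratios compare classes that share a suffix. Border-associated-macrophage-like cells of suffix 1 had 1 of 7 members called higher than microglia-like cells and 0 lower, where 3.89% of 7633 genes were called higher and 2.88% lower. That member was Fcgrt (2.11-fold, log2 1.08, 0.86 to 1.30), and Fcgr2b was just under the line (0.92, 0.75 to 1.08). The Fcgrt ratio was 0.81 with at most 5% mitochondrial counts.

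Dendritic-like cells of suffix 2 had 2 of 6 members called lower than monocyte-like cells and 0 higher, where 9.14% of 3513 genes were called lower and 3.5% higher. These were the activating receptor genes Fcgr1 (log2 -3.19, -3.79 to -2.63) and Fcgr3 (-2.05, -2.38 to -1.72), while Fcgr2b was level (-0.05, -0.31 to 0.21). The Fcgr1 ratio was -0.70 with the member genes left in the clustering. Mature-dendritic-like cells, which express Ccr7, had 3 of 5 members called lower than the dendritic-like cells of the same suffix and 0 higher, where 19% of 3165 genes were called lower and 10.7% higher. Fcgr2b was at -2.90 (-3.69 to -2.20), Fcgrt at -3.89 (-5.53 to -2.65) and Fcrls at -2.99 (-4.90 to -1.59), while B2m, the partner chain of FcRn, was 1.40 higher (1.34 to 1.46).

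NK-like cells of suffix 2 had 4 of 5 members called lower than monocyte-like cells and 0 higher, where 19.5% of 2119 genes were called lower and 12.1% higher. Fcgr1 was at least 19.6-fold lower and Fcgrt at least 11.4-fold lower, taking 3 counts as the limit of a sum with 0 UMIs. Fcgr3 was at -1.95 (-2.61 to -1.35) and Fcgr2b, on 1 UMI, at -6.30 (-11.61 to -3.80). Fcer1g was the fifth member that entered, at 0.35 (0.24 to 0.46).

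Non-classical-monocyte-like cells of suffix 3 had 2 of 7 members called higher than monocyte-like cells, where 6.75% of 2918 genes were called higher, and 3 called lower, where 14.4% were. Fcgr4 (2.78) and Fcer1g (1.02, 0.92 to 1.12) were higher, and Fcgr1, Fcgr2b (-1.69, -2.77 to -0.78) and Fcrls (-1.64, -3.11 to -0.47) were lower. In suffix 2, 2 of 5 members were called lower, Fcgr1 and Fcgr2b (-2.89, -4.78 to -1.51), and 0 higher, where 13.6% of 1742 genes were called lower and 8.55% higher, and Fcgr4 with 49 UMIs missed the minimum by 1. Fcrls on 6 UMIs in suffix 3 turned to 3.70 with at least 1000 detected genes per cell, and Fcer1g was 0.98 with mitochondrial and ribosomal protein genes left out of the total.

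Neutrophil-like cells of suffix 2 had 2 of 7 members called higher than monocyte-like cells, where 5.12% of 2518 genes were called higher, and 1 called lower, where 10.6% were. Fcgr4 was higher (1.99, 1.10 to 2.99) and was past 2-fold under all 9 alternatives (1.32 to 2.78). Fcrls was higher as well (1.02, 0.34 to 1.72), beside 1952 CPM of microglia markers in those neutrophil-like cells and 1189 CPM in the monocyte-like cells, and fell to 0.25 with the member genes left in the clustering. Fcgr1 was lower (-1.81, -2.36 to -1.29) and stood at -0.29 with at most 5% mitochondrial counts. Fcgr3 was not called (0.0088) but stood at 1.09 at resolution 1.0. In the 51 cells named alike at both resolutions the levels were 117 CPM for Fcgr1, 121 CPM for Fcgr2b, 650 CPM for Fcgr3, 104 CPM for Fcgr4 and 169 CPM for Fcrls.

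Monocyte-like cells of suffix 3 against suffix 2 had 2 of 7 members called higher, where 5.94% of 3604 genes were called higher, and 1 called lower, where 3.61% were. Fcgr4 was higher (1.50, 0.63 to 2.49) and stood at 0.51 at resolution 1.0. Fcrls was higher (1.23, 0.63 to 1.88) on 116 and 28 UMIs and turned to -3.05 with the member genes left in the clustering. In the 65 suffix 3 cells named alike at both resolutions Fcrls stood at 16.5 CPM, against 45.8 CPM in suffix 2. Fcgrt was lower (-1.12, -1.61 to -0.63) and was past 2-fold in 2 of 9 alternatives. Fcgr1 (-0.41), Fcgr2b (-0.70), Fcgr3 (0.22) and Fcer1g (-0.04) were not called.

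The signalling genes below the receptors were read from lists of 22 activating and 12 inhibitory genes. Between microglia-like and monocyte-like cells of suffix 2, 2 of the 11 activating genes that entered were called higher and 2 lower, with a list median of 0.20. For the inhibitory genes, 2 of 6 were higher and 1 lower, with a median of -0.56. Over all 1941 genes, 13.6% were called higher and 24.6% lower, with a median of -0.25. Among the activating genes, the adaptor Blnk (226 against 21.3 CPM) and the exchange factor Vav1 (140 against 55.7 CPM) were higher. The kinase Fgr (1 UMI, log2 -4.39, -9.71 to -1.86) and the GTPase Rac2 (270 against 562 CPM) were lower.

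Inpp5d, the phosphatase recruited by the inhibitory receptor, was 1.96 higher (1.25 to 2.67), at 210 against 54.0 CPM. Among microglia-like cells in suffix 2 against suffix 1, 4 of 18 activating genes and 2 of 9 inhibitory genes were called lower and 0 higher, with medians of -0.26 and -0.82, beside the background of 22.2%. Of these 6, the adaptor Pag1 was at -1.08 (-1.78 to -0.47), and the others, Syk, Src, Pik3cg, Pik3r5 and Ptpn11, rested on 1 to 4 UMIs in suffix 2 with intervals that include 0. B2m was 1.03 higher (0.95 to 1.10), at 7433 against 3652 CPM.

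NK-like cells of suffix 2 had 1 of 10 activating genes called higher than monocyte-like cells and 4 lower, with a median of -0.30. Over all 2119 genes, 12.1% were called higher and 19.5% lower. The Src-family kinases Lyn and Fgr and the kinase Prkcd were among the lower activating genes, at 7.64, 22.9 and 7.64 CPM against 174, 113 and 221 CPM, while Rac2 was 1.14 higher. In non-classical-monocyte-like cells of suffix 3, 4 of 11 activating genes were called higher than in monocyte-like cells and 0 lower, with a median of 0.62. Over all 2918 genes, 6.75% were called higher and 14.4% lower. The 4 higher activating genes included Fgr (283 against 92.8 CPM), Lcp2 (179 against 89.1 CPM) and Was (98.1 against 43.6 CPM).

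Tyrobp, which encodes the adaptor DAP12 and works in the same way as the γ chain, was called in none of the 10 comparisons, with log2 ratios from -0.86 to 0.62. In mature-dendritic-like against dendritic-like cells of suffix 2, 5 of 12 activating genes were lower and 0 higher, with a median of -0.93. For the inhibitory genes, 4 of 6 were lower and 1 higher, with a median of -1.58. Over all 3165 genes, 19% were called lower and 10.7% higher, with a median of -0.15. In border-associated-macrophage-like against microglia-like cells 0 of 18 and 0 of 9 genes were called, where 3.89% of 7633 genes were called higher and 2.88% lower.

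The other Fc receptor genes were mostly near the limit of detection. Of 13 listed, Fcamr and Pigr had 0 UMIs in the 2137 cells, and Fcer2a, Fcmr, Fcrl5, Fcrl6 and Fcrlb had 2 to 6 each. Fcrl1 had 333 UMIs, of which 263 were in microglia-like cells. Fcer1a and Ms4a2, which encode chains of the IgE receptor of mast cells and basophils, had 108 and 26 UMIs in only 13 and 9 cells. Of those UMIs, 102 and 24 were in the unnamed cycling class. Mast cell or basophil markers stood at 39.9, 274 and 78.9 CPM over all cells of suffixes 1, 2 and 3. Whether the same few cells held these markers was not tested. Trim21, the cytosolic antibody receptor, had 23 UMIs.

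Likeness to other genes was read from Pearson's r of log2(CPM + 10) over the 18 sums, which share suffixes, depth and classes, among 5994 genes, as a description. The 3 genes most like Fcgr1 were Grn (0.96), Trem2 (0.94) and C1qb (0.94), and Fcrls was most like Camk1 and Plxdc2 (0.98 each). Fcgr4 was most like Fabp4 (0.93), Ace (0.92) and Ceacam1 (0.91), of which Ace is one of the markers that named the non-classical-monocyte-like class. Fcer1g was most like Ggnbp2, Lcp2 and Tyrobp (0.91, 0.90 and 0.87).

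Fcgr3 was most like Rnase4, Daglb and Ldhb (0.94 each), Fcgr2b like Clec4a2, Ppfia4 and Cd14 (0.93, 0.92 and 0.91) and Fcgrt like Ubl3, Cyp27a1 and Mtss1 (0.95, 0.95 and 0.93). Among the members, Fcgr1 and Fcgr3 were most alike (0.89). The activating receptor gene Fcgr4 had r of 0.07 with Fcgr1, 0.18 with Fcgr3 and 0.62 with Fcer1g.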

How the data were processed

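Single cells of 3 barcode suffixes were read from 1 matrix of whole-number UMI counts per gene and barcode, which the authors deposited for the whole series. Cell Ranger 2.0.1 and build mm10 are named, per the submitters' processing notes. The annotation, the cell filter and any doublet removal are not given in the sources used here. Cells with at least 500 genes and at most 10% mitochondrial counts were kept, which removed 5, and Scrublet in scanpy 1.11.5 marked 7 of 2144, so doublets may remain. The 2000 most variable genes without the 7 members gave 30 principal components, 15 neighbours and Leiden clusters at resolution 0.5. A cluster took a class name from at least 3 markers found in 30% of its cells at 2 times the median cluster, and that scoring rule was settled after the clusters were seen. The comparisons of non-classical monocyte-like and of mature dendritic-like cells were added after the values were seen. Members, gene lists and comparisons were chosen with earlier results of these data known. The text names the 7 members, listed genes past 2-fold (up to 6 per comparison), and the 3 genes most like each member. A few genes that these rules select are not reported here. No group was assigned to a suffix and no p-value was computed. Intervals are exact Poisson (CPM), Clopper-Pearson (shares) and conditional binomial (ratios) at 95% and cover counting error only. The ratio code was tested on simulated data. Settings changed one at a time are in the closing section.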

Additional observations from a re-analysis of the deposited data

Results flagged for a closer look

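The 12 barcodes left out by the filters and the doublet call also held UMIs of the members, above the limit of 3 counts that a count of 0 allows. They had 23 UMIs of Fcgr1, 10 of Fcgr2b, 57 of Fcgr3, 7 of Fcgr4, 223 of Fcer1g, 4 of Fcgrt and 71 of Fcrls, in 95711 UMIs.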

How the results depend on the processing

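The ratios of microglia-like to monocyte-like cells in suffix 2 and of suffix 2 to suffix 1 in microglia-like cells gave 126 values under alternatives, of which 108 moved by less than their counting interval and 18 by more. In the other comparisons, called Fcrls ratios changed sign, to -3.05 for monocyte-like cells of suffix 3 against suffix 2 and to 3.70 for non-classical-monocyte-like against monocyte-like cells of suffix 3. For microglia-like against monocyte-like cells of suffix 2, on the log2 scale, the moved values were as follows. With the member genes left in the clustering, Fcgr1 was 1.82, Fcgr3 2.03, Fcer1g -0.15 and Fcrls 4.05. At resolution 1.0, Fcgr1 was 1.67, Fcgr3 2.82 and Fcer1g 0.28. With at least 1000 detected genes, Fcgr3 was 1.99, Fcer1g -0.35, Fcgrt 0.96 and Fcrls 7.65. With at most 5% mitochondrial counts, Fcgr1 was 1.72, Fcgr3 2.80 and Fcer1g 0.25. With the mean of CPM per cell, Fcer1g was -0.080 and Fcrls 5.95, and with classes set cell by cell Fcrls was 5.91. For microglia-like cells of suffix 2 against suffix 1, Fcgr3 was 0.13 with classes set cell by cell. The cause was not tested. Of 1029 CPM values 260 moved, of 378 shares 135, and of 33 Fcgr2b percentages 10. No paired analysis was possible because each group is 1 library and the suffixes are tied to no group. Depth limits Fcgr4, Fcgr1 and Fcgrt, since many of their sums hold under 50 UMIs.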
